A study of Mus musculus with 33 samples.

Results

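The genes described here are 10 neighbours on proximal mouse chromosome 17, of 54752 genes in the forebrain tables: Tmem181a, Dynlt1b, Dynlt1c, Synj2, Serac1, Gtf2h5, Tulp4, Tmem242, Snx9 and Rsph3b. They were picked by symbol, after earlier forebrain results of the same libraries were known, so their forebrain differences are a description. Where forebrain calls of members are counted, nothing is read from them. On GRCm38 they lie between Tmem242, which starts at 5410864, and Rsph3b, which ends at 6948356. Copies of members sit among them, so Dynlt1a, Dynlt1f, Tmem181b-ps and Tmem181c-ps on the same chromosome, Rsph3a farther along it and Dynlt1-ps1 on chromosome 6 are given beside the members they resemble.

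The study asked how the dose of n-Tr20, a neuronal arginine tRNA, shapes the mouse brain, and it held 33 libraries from mice aged 8 weeks. Forebrain RNA, depleted of ribosomal RNA, came from 5 groups of 4 mice. These were C57BL/6J (B6J) mice with n-Tr20 deleted on both alleles (n-Tr20 -/-), B6J mice, which carry a hypomorphic n-Tr20, B6J mice carrying the transgene Tg(n-Tr20), C57BL/6NJ (B6N) mice that were n-Tr20 -/-, and B6N mice, which are wild-type for n-Tr20. The transgenic mice carry the transgene on the B6J strain, and the sources used here do not give its promoter. All B6J n-Tr20 -/- libraries belong to the second batch by their titles, which do not say what kind of batch it was. Of the other mice, transgenic mouse 4 alone has a library in each batch. Hippocampus, labelled C57BL/6NJ, was sampled as poly(A) RNA and as ribosome footprints, with 3 libraries of each kind from n-Tr20 -/- and 3 from wild-type mice. Libraries of a group are numbered, and differently numbered forebrain libraries are called mice here. Apart from the sex genes given below, nothing else says that they came from separate animals. The p-values therefore measure only the spread between these samples, which may be technical.

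Proximal chromosome 17 is the region of the t-complex, in which the light-chain genes of the Dynlt1 (Tctex1) family were first found in mice. Dynlt1 proteins are light chains of cytoplasmic dynein, the motor that carries cargo toward the minus ends of microtubules, which in an axon means toward the cell body. Tmem181 proteins span membranes many times, and human TMEM181 is known as a host factor for a bacterial toxin. B6J and B6N are substrains of 1 inbred strain that were bred apart for decades and differ at a limited number of variants.

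Stretches near the starts of a pair of copies, Dynlt1c and Dynlt1f, are printed to show how alike they are. They come from windows of 250 bases before to 50 after a start. The windows were aligned without gaps at the offset with the highest share of matching bases. The Dynlt1c stretch ends before its start at 6601779, whereas that of Dynlt1f runs up to the start of its window. Likeness at equal distances from the starts was not measured. The bases lie before the starts of those windows, but Dynlt1f is annotated to 6655965, so the end of its stretch lies inside the gene. They do not show whether reads from the copies can be told apart. Transcript sequences of the copies were not compared. The stretches are from RefSeq on GRCm38.p6, before the window starts of Dynlt1c (chr17:6601529-6601670, plus strand) and Dynlt1f (chr17:6655940-6656081, minus strand). Capitals mark the bases that differ.
Dynlt1c: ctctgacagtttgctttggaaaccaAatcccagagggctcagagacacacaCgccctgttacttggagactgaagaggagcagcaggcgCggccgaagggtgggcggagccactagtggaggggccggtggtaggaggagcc
Dynlt1f: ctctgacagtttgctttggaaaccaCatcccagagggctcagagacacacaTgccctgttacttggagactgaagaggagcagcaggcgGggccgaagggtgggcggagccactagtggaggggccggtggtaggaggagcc
The stretches matched at 139 of 142 bases (97.9%) and differed by A26C, C52T and C90G, counted from 1 at the 5′ end, with the base of Dynlt1c first.

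The promoter of Tmem181a is shown because the gene gave one of the steadiest differences between B6N and the other groups. The 250 bases before the start of its earlier promoter window (chr17:6256610-6256859, plus strand, RefSeq, GRCm38.p6) are printed. Matches to GGGCGG and CCAAT, on either strand, are in capitals. The gene is annotated from 6256726, so the later part of these bases lies inside it.
Tmem181a: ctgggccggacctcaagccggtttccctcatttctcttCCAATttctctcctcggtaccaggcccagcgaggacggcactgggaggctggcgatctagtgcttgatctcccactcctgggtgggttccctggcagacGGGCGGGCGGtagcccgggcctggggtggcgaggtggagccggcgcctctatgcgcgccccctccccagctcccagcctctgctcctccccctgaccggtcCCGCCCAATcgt
Windows of 250 bases before to 50 after a start were at hand for 8 of the 10 members. The earlier window of Tmem181a held 3 matches to GGGCGG, of which a pair overlap, and 2 to CCAAT, of which 1 overlaps a reverse-strand GGGCGG. Of 32841 promoter windows of that length, 35.7% held GGGCGG and 37.4% held CCAAT. That window held no TATAAA, found in 13.6% of windows, and no CACGTG, found in 7.15%. The later window of Tmem181a, which runs over chr17:6270220-6270519, held 1 GGGCGG, 0 CCAAT, 0 TATAAA and 2 CACGTG.

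Total counts ran from 14.7 M to 38.5 M (M, 1000000) in forebrain, 35.8 M to 60.4 M in hippocampus RNA and 7.62 M to 17.9 M in footprints. Levels below are counts per 1000000 (CPM) on TMM-scaled library sizes. The strain labels were checked with a pair of genes that are known to be lower in B6J. Nnt, which lost exons in B6J, was at 18.3 to 20.4 CPM in B6J n-Tr20 -/-, 17.7 to 20.7 CPM in B6J and 18.3 to 20.7 CPM in transgenic forebrain, against 31.0 to 36.7 CPM in B6N n-Tr20 -/- and 34.8 to 36.8 CPM in B6N. Gabra2, a GABA receptor subunit, was at 106.9 to 114.4 CPM in B6N n-Tr20 -/- and 99.4 to 104.4 CPM in B6N, against at most 60.0 CPM in the 3 B6J groups. At both genes, then, B6N n-Tr20 -/- stood with B6N. By Xist and Ddx3y, 3 of 4 B6J n-Tr20 -/- libraries and 1 hippocampus n-Tr20 -/- RNA library were female and the other RNA libraries male. The summed level of 6 choroid plexus markers was 387.4 to 551.6 CPM in B6J n-Tr20 -/- and 10.2 to 473.1 CPM in the other forebrain libraries, and its part in any value of the B6J n-Tr20 -/- group was not tested. By chi-square per degree of freedom over genes, pairs of B6J n-Tr20 -/- libraries differed by 10.5 to 51.8 and the 2 libraries of transgenic mouse 4 by 36.9, against 2.73 to 13.5 for pairs within the other forebrain groups.

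Tmem181a, the multi-pass membrane protein, was lower in every other forebrain group than in B6N, including B6N mice that differ by label only in n-Tr20. The B6J n-Tr20 -/- libraries had 100.5, 96.7, 114.7 and 114.0 CPM, and the B6J libraries had 97.5, 107.5, 105.7 and 98.7 CPM. The transgenic libraries had 104.0, 98.2, 95.4 and 98.0 CPM, and the repeat library of transgenic mouse 4 in the second batch had 104.7 CPM. The B6N n-Tr20 -/- libraries had 96.0, 100.4, 97.8 and 101.4 CPM, against 121.3, 132.6, 142.4 and 133.8 CPM in B6N. All 16 mice outside B6N thus lay below the lowest B6N mouse, number 1. The log2 fold change was -0.42 ± 0.04 (SE, n = 4 per group) in B6N n-Tr20 -/- against B6N, -0.37 ± 0.04 in B6J against B6N and -0.42 ± 0.04 in transgenic mice against B6N. These 3 comparisons share the B6N mice. Set against each other, B6J exceeded B6N n-Tr20 -/- by 0.06 ± 0.04 on the log2 scale (95% interval -0.03 to 0.15).

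Tmem181b-ps, a transcribed pseudogene copy that overlaps the end of Dynlt1b, was also highest in B6N, with a larger gap. It had 56.2, 54.5, 79.3 and 78.4 CPM in B6J n-Tr20 -/-, 49.9, 52.8, 52.4 and 59.3 CPM in B6J and 57.9, 59.1, 48.8 and 56.2 CPM in transgenic libraries. The B6N n-Tr20 -/- libraries had 46.5, 50.1, 46.1 and 48.9 CPM, against 74.1, 100.7, 102.8 and 100.7 CPM in B6N. B6N mouse 1 was again the lowest of its group, and B6J n-Tr20 -/- mice 3 and 4 lay above it. The log2 fold change against B6N was -0.98 ± 0.10 in B6N n-Tr20 -/-, -0.81 ± 0.10 in B6J and -0.77 ± 0.10 in transgenic mice.

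Tmem181c-ps, the third copy, lay at 3 levels over the groups. It had 1.97, 1.78, 4.06 and 4.42 CPM in B6J n-Tr20 -/-, 2.59, 2.60, 2.49 and 2.64 CPM in B6J and 3.31, 1.85, 3.02 and 2.43 CPM in transgenic mice. It had 4.78, 6.50, 4.91 and 6.30 CPM in B6N n-Tr20 -/-, against 6.70, 8.76, 7.44 and 8.07 CPM in B6N. The B6N n-Tr20 -/- mice lay between the other groups and touched neither B6N nor any B6J group, and B6J n-Tr20 -/- mouse 4 was the closest to them. The log2 fold change against B6N was -1.58 ± 0.14 in B6J and -1.52 ± 0.14 in transgenic mice, but -0.46 ± 0.12 in B6N n-Tr20 -/-. That last difference was near the threshold (adjusted p = 0.0416 by the quasi-likelihood test of edgeR). It was called in 5 of 7 settings, the main fit included, and in 3 of 8 fits that left out a library. B6J lay -1.12 ± 0.15 from B6N n-Tr20 -/-, so at this copy the B6J-like level was not shared by the B6N n-Tr20 -/- mice.

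**Figure D1:**
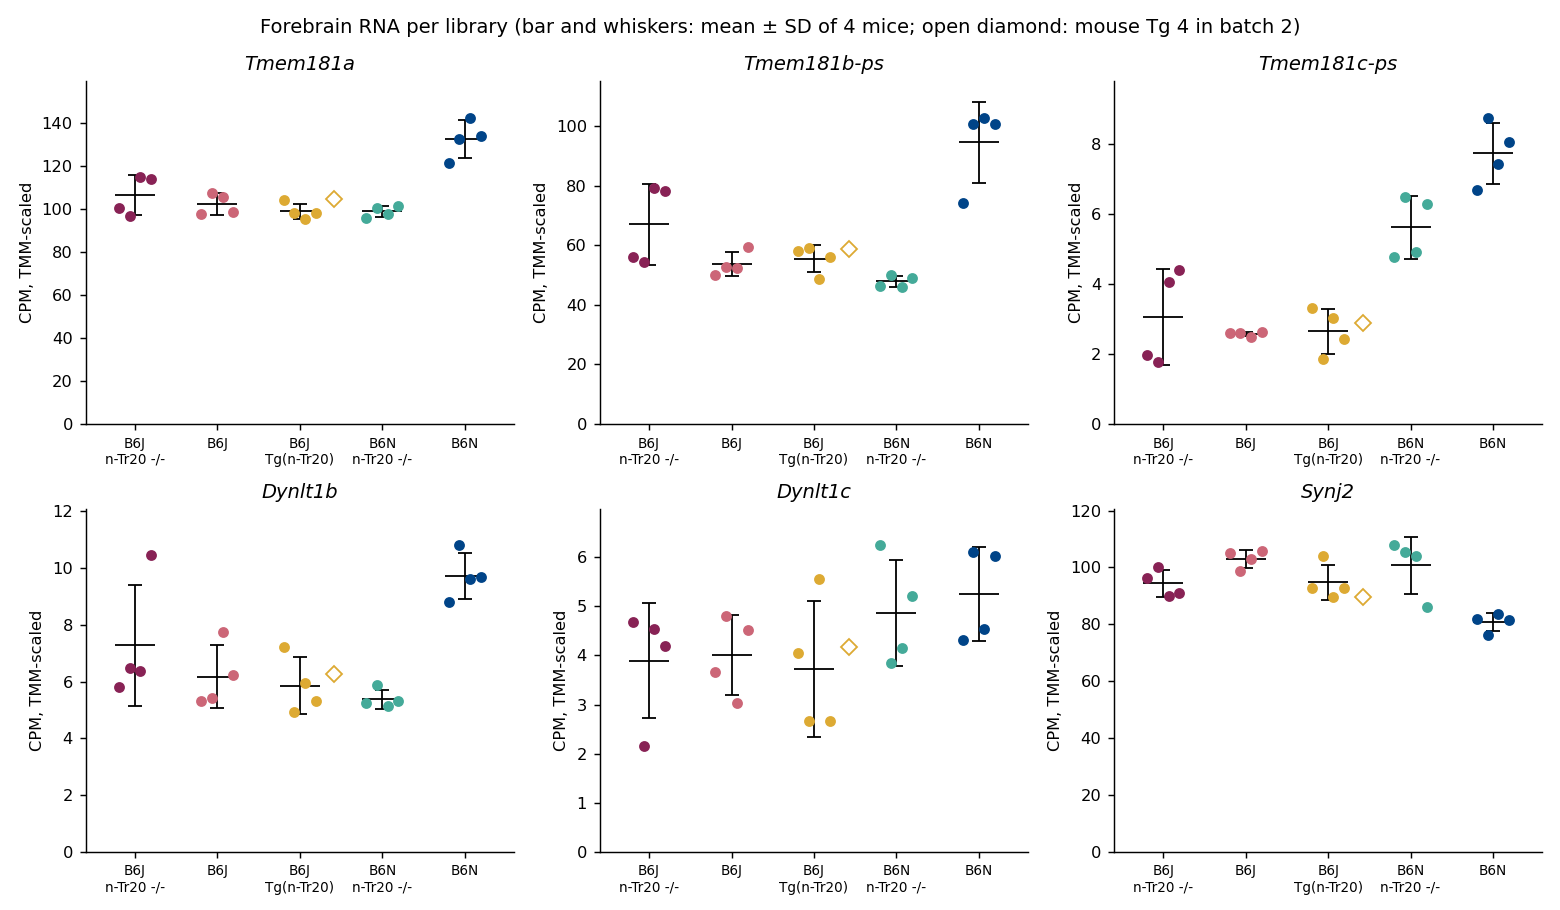
TMM-scaled CPM of 6 genes in each forebrain library, by group, with mean and SD of 4 mice and the repeat library of transgenic mouse 4 as an open diamond. For Tmem181a every mouse outside B6N lies below the lowest B6N mouse at 121.3 CPM, and for Synj2 every one lies above the highest at 83.7 CPM.

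Dynlt1b, a dynein light chain, had the largest fold difference from B6N among the members in the 3 first-batch comparisons. The B6J n-Tr20 -/- libraries had 5.80, 6.47, 6.37 and 10.5 CPM, the B6J libraries 5.33, 5.42, 7.74 and 6.23 CPM, and the transgenic libraries 7.21, 4.91, 5.96 and 5.31 CPM. The B6N n-Tr20 -/- libraries had 5.23, 5.87, 5.13 and 5.30 CPM, against 8.80, 10.8, 9.60 and 9.69 CPM in B6N. Of the 16 mice outside B6N, 15 lay below the lowest B6N mouse, and B6J n-Tr20 -/- mouse 4 lay among the B6N mice. The log2 fold change against B6N was -0.85 ± 0.11 in B6N n-Tr20 -/-, -0.66 ± 0.11 in B6J and -0.72 ± 0.11 in transgenic mice. B6J lay 0.19 ± 0.12 from B6N n-Tr20 -/- (95% interval -0.06 to 0.44).

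Other genes of the Dynlt1 family differed less from B6N. Dynlt1c, a member with few counts, had 4.67, 2.16, 4.54 and 4.18 CPM in B6J n-Tr20 -/-, 3.67, 4.81, 3.04 and 4.52 CPM in B6J and 4.04, 2.66, 5.57 and 2.66 CPM in transgenic mice. It had 6.24, 3.86, 4.16 and 5.22 CPM in B6N n-Tr20 -/-, against 4.31, 6.11, 4.54 and 6.03 CPM in B6N, and the groups overlapped throughout. Dynlt1f averaged 8.12 ± 0.94 CPM in B6J, 8.89 ± 0.87 CPM in transgenic mice, 8.68 ± 1.72 CPM in B6N n-Tr20 -/- and 10.8 ± 1.43 CPM in B6N (SD, n = 4 each). Its log2 fold change against B6N was -0.40 ± 0.12 in B6J, without overlap, -0.28 ± 0.12 in transgenic mice and -0.30 ± 0.12 in B6N n-Tr20 -/-, both with overlap. Dynlt1a averaged 11.1 ± 0.44 CPM in B6J, 10.4 ± 0.76 CPM in transgenic mice, 10.7 ± 1.36 CPM in B6N n-Tr20 -/- and 11.9 ± 0.14 CPM in B6N. Its log2 fold change was -0.10 ± 0.08 in B6J and -0.19 ± 0.08 in transgenic mice, both without overlap, and -0.17 ± 0.08 in B6N n-Tr20 -/-. In B6J n-Tr20 -/- against B6N n-Tr20 -/-, Dynlt1c had a log2 fold change of -0.92 ± 0.56, with overlap. Dynlt1-ps1 was at 0 to 1.42 CPM in every forebrain library, too low for a fold change.

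Because the authors' counting can move reads between copies, each family was also summed. All Dynlt1 copies together had 27.7 to 31.5 CPM in B6N n-Tr20 -/- and 35.0 to 40.1 CPM in B6N, with 27.1 to 31.5 CPM in B6J and 26.1 to 31.4 CPM in transgenic mice. The summed log2 fold change against B6N was -0.35 ± 0.06 in B6J, -0.39 ± 0.06 in transgenic mice and -0.33 ± 0.06 in B6N n-Tr20 -/-, smaller than for Dynlt1b alone but without overlap between libraries of these groups. The B6J n-Tr20 -/- mice, all in the second batch, had 32.6 to 38.3 CPM. They overlapped B6N and lay above every library of B6J, transgenic and B6N n-Tr20 -/- mice. In the fit that carries batch, their summed log2 fold change was 0.10 ± 0.14 against B6J, 0.14 ± 0.12 against transgenic mice and 0.08 ± 0.14 against B6N n-Tr20 -/-. All Tmem181 copies together had 147.3 to 157.0 CPM in B6N n-Tr20 -/- and 202.1 to 252.7 CPM in B6N, a log2 fold change of -0.62 ± 0.05. Between B6J and B6N n-Tr20 -/- the sums differed by -0.02 ± 0.06 for Dynlt1 and 0.06 ± 0.05 for Tmem181. Within the Tmem181 family the ratio of Tmem181b-ps to Tmem181a counts was 0.472 to 0.499 in B6N n-Tr20 -/- and 0.611 to 0.759 in B6N.

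Synj2, synaptojanin 2, an inositol phosphatase of endocytic membranes, ran the other way, with a larger difference than Tulp4, the other member above B6N. It had 96.4, 100.1, 90.0 and 91.0 CPM in B6J n-Tr20 -/-, 104.9, 98.6, 102.8 and 105.8 CPM in B6J and 92.7, 103.9, 89.7 and 92.7 CPM in transgenic mice. The B6N n-Tr20 -/- libraries had 107.7, 105.3, 103.9 and 85.9 CPM, against 81.7, 76.2, 83.7 and 81.3 CPM in B6N. All 16 mice outside B6N lay above the highest B6N mouse, with B6N n-Tr20 -/- mouse 4 the closest to it. The log2 fold change against B6N was 0.36 ± 0.06 in B6J, 0.23 ± 0.06 in transgenic mice and 0.32 ± 0.06 in B6N n-Tr20 -/-.

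The members between and around these genes had smaller differences. Serac1, which remodels phospholipids where mitochondria meet the endoplasmic reticulum, was below the lowest B6N library in 15 of 16 other mice. Its mean was 24.7 ± 1.24 CPM in B6J, 24.1 ± 1.03 CPM in transgenic mice, 25.5 ± 0.74 CPM in B6N n-Tr20 -/- and 27.2 ± 0.73 CPM in B6N. Its log2 fold change against B6N was -0.13 ± 0.05 in B6J, -0.17 ± 0.05 in transgenic mice and -0.09 ± 0.05 in B6N n-Tr20 -/-. Tulp4, a tubby-like protein, was above the highest B6N library in 15 of 16 other mice. Its log2 fold change against B6N was 0.09 ± 0.03 in B6J, 0.10 ± 0.03 in transgenic mice and 0.05 ± 0.03 in B6N n-Tr20 -/-. Neither Serac1 nor Tulp4 passed an adjusted p of 0.05 in these comparisons. The share of all genes with 15 of 16 mice so placed was not counted, and these levels of second-batch mice carry no batch adjustment.

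Gtf2h5, the smallest subunit of the transcription and repair factor TFIIH, shares its upstream region with Serac1 and averaged 35.0 ± 1.14 CPM in B6N n-Tr20 -/- and 35.8 ± 1.66 CPM in B6N. Rsph3b, part of the radial spoke of motile cilia, averaged 22.1 ± 1.74 CPM in B6N n-Tr20 -/- and 23.1 ± 2.11 CPM in B6N. Its copy Rsph3a averaged 14.7 ± 1.07 CPM in B6J n-Tr20 -/-, 12.98 ± 0.81 CPM in B6J, 11.9 ± 1.87 CPM in transgenic mice, 13.5 ± 1.27 CPM in B6N n-Tr20 -/- and 12.3 ± 1.32 CPM in B6N. Tmem242, whose human counterpart helps assemble mitochondrial ATP synthase, was at 18.4 to 20.8 CPM in B6J, against 21.5 to 23.1 CPM in transgenic mice. It was at 20.83 to 23.5 CPM in B6N n-Tr20 -/- and 21.2 to 22.2 CPM in B6N. The repeat library of transgenic mouse 4 in the second batch had 18.35 CPM, below every first-batch library of transgenic and B6J mice, and the part of batch in this difference was not tested. Its log2 fold change was -0.17 ± 0.06 in B6J against transgenic mice and -0.17 ± 0.06 against B6N n-Tr20 -/-. Snx9, a sorting nexin of clathrin-coated pits, had 13.6, 13.1, 13.8 and 14.6 CPM in B6J n-Tr20 -/-, against 11.5, 11.04, 11.8 and 12.6 CPM in transgenic mice, with no overlap. In the fit that carries batch, set by the 2 libraries of transgenic mouse 4, the log2 fold change of Snx9 was 0.39 ± 0.15, and without a batch term it was 0.25.

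**Figure D2:**
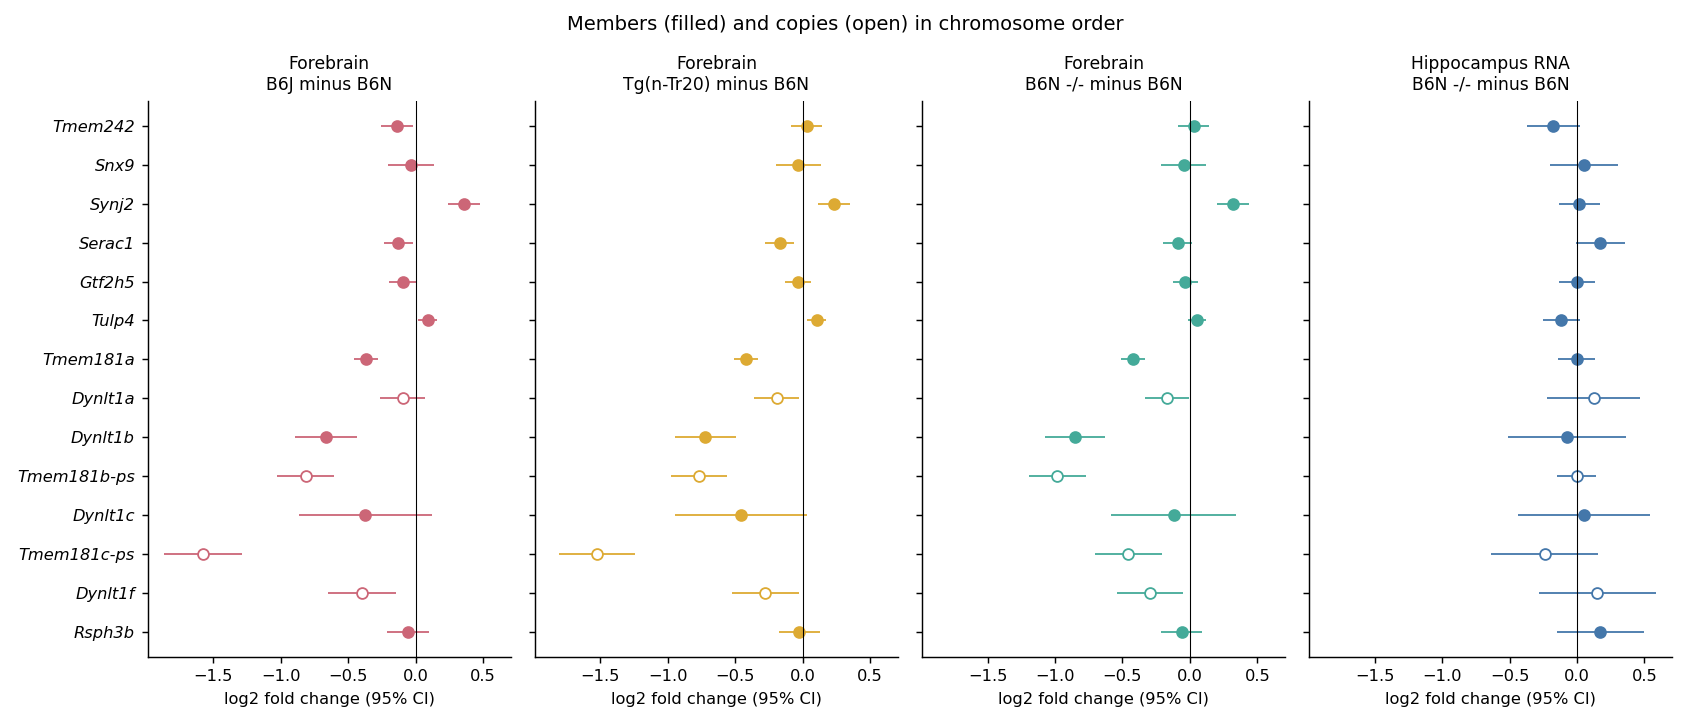
Log2 fold change with its 95% interval for the 10 members (filled) and 4 copies (open), from top to bottom in chromosome order, in 3 forebrain comparisons and in hippocampus RNA. In the forebrain panels Tmem181a, Dynlt1b and Tmem181b-ps lie left of 0 and Synj2 right of it, and in hippocampus RNA all intervals reach 0.

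Against the whole table, 3 of 10 members passed an adjusted p of 0.05 in B6N n-Tr20 -/- against B6N (Tmem181a and Dynlt1b lower, Synj2 higher), where 1.91% of 25151 genes tested did, 1.11% higher and 0.807% lower. The same 3 of 10 passed in B6J against B6N, where 1.73% of genes did, 1.21% higher and 0.513% lower. Tmem181a and Dynlt1b, 2 of 10, passed in transgenic mice against B6N, where 0.366% did, 0.27% higher and 0.0954% lower. Libraries did not overlap for 3 of 10 members in B6N n-Tr20 -/- against B6N (8.5% of all genes), for 6 in B6J against B6N (9.04%) and for 5 in transgenic mice against B6N (4.66%). The members were chosen on such values, so nothing is read from these shares. All 12 libraries of B6J, transgenic and B6N n-Tr20 -/- mice were below every B6N library for 2 members and above for 1, as they were for 0.231% and 0.195% of all genes tested. The median log2 fold change of the members was -0.05 in B6N n-Tr20 -/- against B6N and -0.11 in B6J against B6N, with medians over all genes of -0.0014 and -0.00031.

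Between groups outside B6N, no member passed the quasi-likelihood test of edgeR after Benjamini-Hochberg adjustment. In B6J against B6N n-Tr20 -/-, 0 of 10 passed (1.51% of all genes). An unadjusted p under 0.05 was found for 1 (12.5% of all genes), and DESeq2 called 0 (1.72%). In B6J against transgenic mice, 0 of 10 passed (0.25% of all genes), with 2 at an unadjusted p under 0.05 (10.3%) and 0 by DESeq2 (0.624%). In B6J n-Tr20 -/- mice, 0 of 10 passed against transgenic mice, B6J or B6N n-Tr20 -/-, where 0.6%, 0.0945% and 0.345% of 27500 genes did. Unadjusted p-values under 0.05 numbered 1, 2 and 1 there, against 11.1%, 7.71% and 10.1% of all genes. DESeq2 called 0 members in each, against 1.71%, 0.513% and 1.13% of all genes. Libraries did not overlap for 1 of 10 members, Tmem242, in B6J against B6N n-Tr20 -/- (7.86% of all genes) and in B6J against transgenic mice (5.01%). They did not overlap for Snx9 in B6J n-Tr20 -/- against transgenic mice (14.8%) and against B6J (14.7%), and for 0 members against B6N n-Tr20 -/- (13.2%). Comparisons of B6J n-Tr20 -/- rest on 1 mouse for the batch term, and for Dynlt1b the 95% interval of B6J n-Tr20 -/- against B6N n-Tr20 -/- ran from -0.49 to 0.94. By Xist and Ddx3y, 3 libraries of B6J n-Tr20 -/- were female and all libraries of the groups set against it male. The part of sex in these comparisons was not tested.

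Within 1000 kb of the outermost members 30 genes passed the filter on low counts, and 15 of them were neither members nor copies. The 5 of these with the largest differences in B6N n-Tr20 -/- against B6N were Ldhal6b, Fndc1, Gm2885, Sytl3 and Tagap. Fndc1, a fibronectin-domain protein, averaged 2.72 ± 0.23 CPM in B6N n-Tr20 -/- and 4.05 ± 0.39 CPM in B6N, a log2 fold change of -0.58 ± 0.13 that passed the threshold. In B6J against B6N its log2 fold change was -0.18 ± 0.13. Ldhal6b, at 0.38 ± 0.26 CPM in B6N n-Tr20 -/- and 0.06 ± 0.10 CPM in B6N, Gm2885, Sytl3 and Tagap did not pass. Over all comparisons 3 of the 15 passed in any, Fndc1 and another 2 that were chosen after their values were seen. The share of all genes passing in any comparison was not counted. It was 1.91% in B6N n-Tr20 -/- against B6N and 1.73% in B6J against B6N. In B6J n-Tr20 -/- it was 0.6% against transgenic mice and 0.345% against B6N n-Tr20 -/-. Zdhhc14, a palmitoyltransferase that lies between Tmem242 and Snx9, had a log2 fold change of 0.32 ± 0.07 in B6J against B6N, which passed, and 0.15 ± 0.07 in B6N n-Tr20 -/- against B6N. Ezr, ezrin, which links membranes to actin, lies between Dynlt1f and Rsph3b. It had a log2 fold change of 0.64 ± 0.11 in B6J n-Tr20 -/- against transgenic mice and 0.57 ± 0.13 against B6N n-Tr20 -/-, both past the threshold, and 0.02 ± 0.06 in B6N n-Tr20 -/- against B6N. The choroid plexus markers summed to 387.4 to 551.6 CPM in B6J n-Tr20 -/-, against 14.8 to 66.1 CPM in transgenic mice and 11.6 to 287.1 CPM in B6N n-Tr20 -/-. Their part and that of sex in the Ezr difference were not tested.

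**Figure D3:**
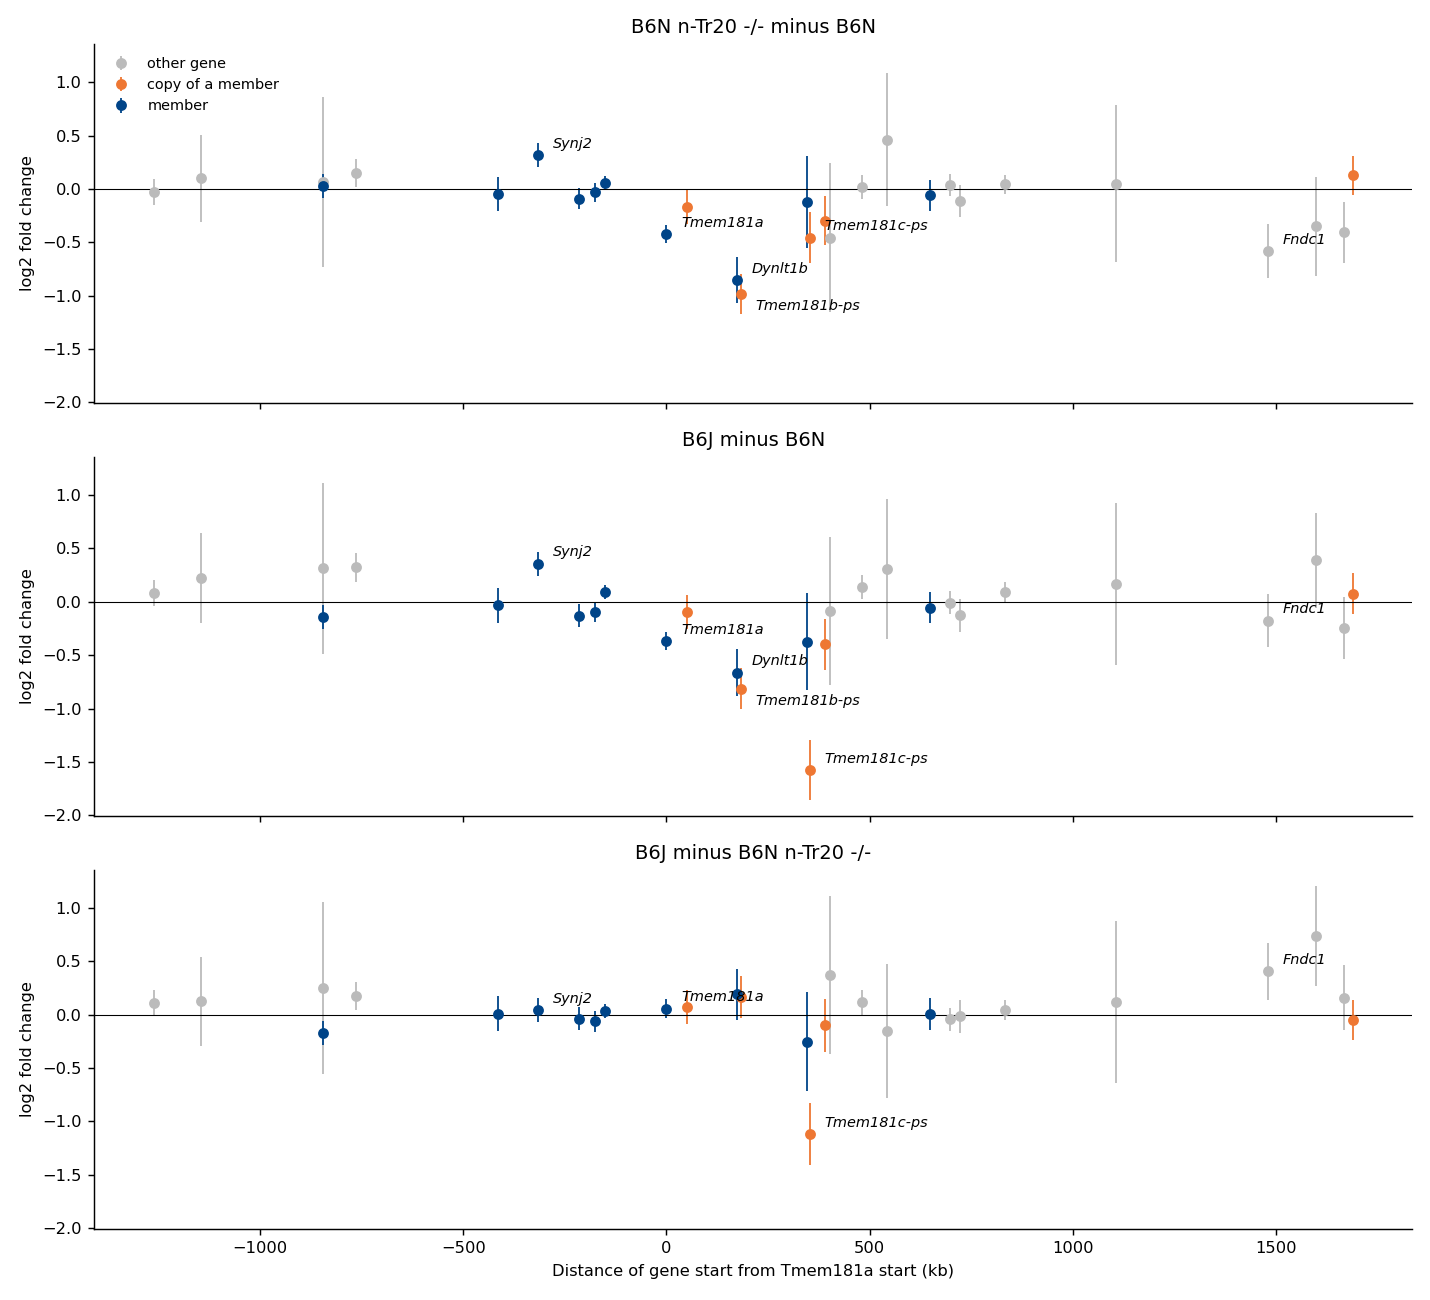
Log2 fold change with its 95% interval (normal approximation) of genes tested within 1000 kb of the members, by distance of the gene start from that of Tmem181a. Tmem181a, Dynlt1b and Tmem181b-ps lie below 0 in the upper 2 panels, as does Fndc1 at -0.58 in the top one, and in the lowest panel Tmem181c-ps, at -1.12, is the lowest point. Ldhal6b, with an SE above 0.5, is not drawn.

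Genes whose pattern over the 16 first-batch libraries was closest are given as a description. The members were chosen with results of these libraries known, so nothing is read from the rank of neighbours. Copies may share reads, and the part of this in the r of Tmem181a with Tmem181b-ps was not tested. By Pearson's r of log2 CPM, Dynlt1b was closest to Tmem181a (r = 0.904) and Tmem181b-ps (r = 0.882). Next came Tpi1, a glycolytic enzyme (r = 0.858), Limd2 (r = 0.856) and Emp3 (r = 0.833), which are not on chromosome 17. Tmem181a was closest to Tmem181b-ps (r = 0.945) and Dynlt1b, then to Gm26848 (r = 0.871), 4930502E18Rik (r = 0.849) and Tef, a clock-controlled transcription factor (r = 0.818). Over the same libraries Synj2 had an r of -0.77 with Tmem181a. The libraries of a group share their strain and genotype, so these values describe the groups more than single mice.

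Levels can be compared between genes per length, from the deposited TPM. In B6N forebrain Tulp4 led with 61.6 ± 2.23 TPM, followed by Tmem181b-ps with 30.9 ± 4.36 TPM. Tmem181a and Gtf2h5, next at 17.9 ± 1.24 and 17.9 ± 1.47 TPM, did not differ beyond their spread. Tmem242 had 14.7 ± 0.78 TPM, Synj2 12.4 ± 1.03 TPM and Rsph3b 9.12 ± 1.07 TPM. Dynlt1b, at 8.49 ± 0.51 TPM, stood within the spread of Rsph3b and above Serac1, at 6.29 ± 0.75 TPM. Dynlt1c had 3.98 ± 0.51 TPM and Snx9 was the lowest member with 2.43 ± 0.17 TPM.

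By transcript, the gap of Tmem181a lay mainly in 1 of its 4 annotated forms. Tmem181a-204, protein coding, averaged 47.4 ± 7.21 CPM in B6N n-Tr20 -/- and 72.9 ± 9.73 CPM in B6N, with ranges of 39.6 to 56.4 and 62.3 to 81.4 CPM that did not overlap. Tmem181a-201, also coding, averaged 43.3 ± 7.01 CPM in B6N n-Tr20 -/- and 47.9 ± 6.58 CPM in B6N, with overlapping ranges. In B6J the 204 form ranged from 42.1 to 69.2 CPM and so reached into the B6N range. All 4 annotated forms of Tmem181b-ps had lower means in B6N n-Tr20 -/- than in B6N, at 0.313 to 0.574 of the B6N mean. Dynlt1b has a single annotated transcript. Synj2 has 16, and their means differed from B6N in several ways. Synj2-208 averaged 23.5 CPM in B6J, 24.0 CPM in B6N n-Tr20 -/- and 18.8 CPM in B6N, and Synj2-213 averaged 17.4 CPM in B6J, 15.8 CPM in B6N n-Tr20 -/- and 12.1 CPM in B6N. Synj2-209 averaged 20.3 ± 4.16 CPM in B6N n-Tr20 -/- and 7.85 ± 2.39 CPM in B6N, while B6J had 7.40 ± 3.76 CPM. Synj2-202 averaged 18.8 ± 8.56 CPM in B6J, with 9.14 ± 3.14 CPM in B6N n-Tr20 -/- and 8.67 ± 4.11 CPM in B6N. Estimates for single transcripts of 1 gene trade reads with each other, and they were not tested.

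Hippocampus libraries are separate from the forebrain libraries on which the members were chosen, although whether earlier hippocampus results entered that choice is not known. Tmem181a had 50.4, 52.6 and 54.2 CPM in n-Tr20 -/- and 52.3, 53.2 and 51.7 CPM in wild-type hippocampus, and the groups overlapped fully. Its log2 fold change was -0.003 ± 0.06 (3 libraries per group, adjusted p = 0.995 by the quasi-likelihood test of edgeR), with a 95% interval of -0.14 to 0.13. That interval does not reach the forebrain value of -0.42. The forebrain value comes from another counting method and from a member chosen with forebrain results known. The values of the tissues were not tested against each other.

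Dynlt1b had 1.53, 1.64 and 1.47 CPM in n-Tr20 -/- and 1.57, 1.96 and 1.33 CPM in wild-type hippocampus RNA, on 54 to 97 counts per library. Its log2 fold change was -0.07 ± 0.20 (adjusted p = 0.952 by the same edgeR test), and its 95% interval of -0.51 to 0.36 does not reach the forebrain value of -0.85. Tmem181b-ps averaged 108.9 ± 5.42 CPM in n-Tr20 -/- and 108.9 ± 7.89 CPM in wild-type (SD, n = 3 each). Synj2 averaged 87.3 ± 4.94 CPM in n-Tr20 -/- and 86.0 ± 6.17 CPM in wild-type. Of the 10 members 0 passed, as did 0.0413% of 19352 genes, with 0 members at an unadjusted p under 0.05 (7.94% of all genes) and 0 by DESeq2 (0.713%), and libraries overlapped for all 10 (14.4% of all genes did not). The difference between tissues was not tested, since the tables were counted by different methods. Tmem181b-ps, for one, had 1.97 to 2.28 times the counts of Tmem181a in n-Tr20 -/- and 1.95 to 2.21 times in wild-type hippocampus, against less than 1 in every forebrain library. The column headers and the protocol of the hippocampus RNA name B6JN mice, whereas the protocol of the footprints names B6N, so the strain of the RNA samples is less certain than in forebrain. Nnt was at 0.76 to 0.93 CPM in n-Tr20 -/- and 0.88 to 1.05 CPM in wild-type hippocampus RNA, and at 0 in all 6 footprint libraries. Gabra2 was at 215.5 to 284.0 CPM in n-Tr20 -/- and 229.5 to 259.1 CPM in wild-type hippocampus RNA. Neither level can be set against the forebrain levels, since the counting differed, and neither separated the genotypes in RNA.

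Footprints, the RNA stretches that ribosomes shield, gave lower counts for Dynlt1b in n-Tr20 -/- hippocampus. There were 11, 2 and 7 footprints in n-Tr20 -/- and 17, 23 and 19 in wild-type libraries, or 0.63, 0.26 and 0.84 against 1.70, 2.50 and 1.69 CPM. The groups did not overlap, as they did not for 26.5% of the 13227 genes tested. The log2 fold change was -1.70 ± 0.51 and did not pass (adjusted p = 0.0705 by the quasi-likelihood test of edgeR). Over the alternatives with an adjusted p, that value lay between 0.0705 and 0.108, and leaving out a library gave 0.0812 to 0.242. Relative to RNA, as translational efficiency, the change was -1.66 ± 0.50 (adjusted p = 0.151 by the same test). Dynlt1f had 0 footprints in all 6 libraries and Dynlt1c had 0 to 11, against 2 to 23 for Dynlt1b.

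Gtf2h5 had 60.9, 56.3 and 69.6 CPM in n-Tr20 -/- and 81.3, 82.2 and 76.8 CPM in wild-type footprints, with no overlap, while its RNA averaged 58.1 ± 1.44 and 58.0 ± 2.43 CPM. The footprint log2 fold change was -0.35 ± 0.10 (adjusted p = 0.0585 by the quasi-likelihood test of edgeR), and that of translational efficiency was -0.38 ± 0.12 (adjusted p = 0.157). DESeq2 put both past the threshold (adjusted p = 0.031 for footprints and 0.0266 for efficiency). Leaving out a library gave 0.0348, without n-Tr20 -/- library 3, to 0.215 for footprints. Rsph3b had 19, 6 and 12 footprints in n-Tr20 -/- and 18, 26 and 23 in wild-type. On library size these were 0.79 to 1.44 CPM against 1.80 to 2.83 CPM, without overlap. Its log2 fold change was -0.99 ± 0.43 (adjusted p = 0.2 by edgeR's test) and became -1.19 ± 0.35 relative to RNA (adjusted p = 0.144). The summed level of 7 genes of ependyma and motile cilia was 110.7 to 118.1 CPM in n-Tr20 -/- and 95.2 to 109.1 CPM in wild-type footprints. Tmem242 had 14.9, 14.9 and 15.1 CPM in n-Tr20 -/- and 15.9, 22.7 and 21.98 CPM in wild-type footprints, without overlap, and its log2 fold change of -0.42 ± 0.17 did not pass. Serac1 had 24.9, 21.98 and 17.04 CPM in n-Tr20 -/- and 10.2, 16.3 and 18.4 CPM in wild-type footprints. The Serac1 groups overlapped, and its log2 fold change of 0.52 ± 0.22, the highest among the members, did not pass either. Tmem181a had 15.6, 25.3 and 25.1 CPM in n-Tr20 -/- and 26.1, 34.6 and 22.9 CPM in wild-type footprints, and the groups overlapped (log2 fold change -0.35 ± 0.20).

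**Figure D4:**
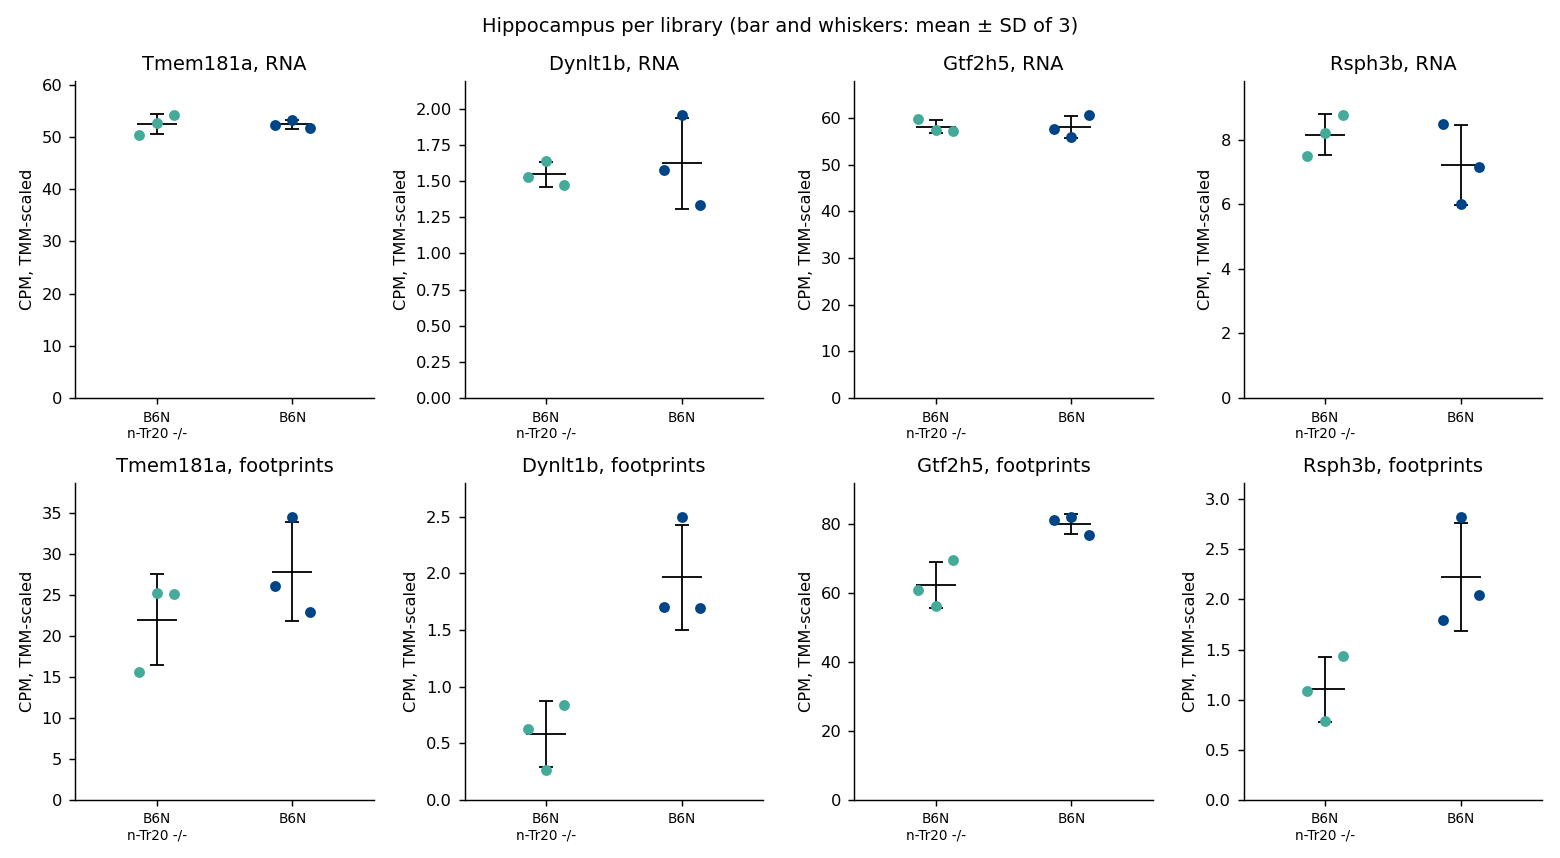
TMM-scaled CPM of 4 members in hippocampus RNA (upper row) and ribosome footprints (lower row), per library, with mean and SD of 3. The n-Tr20 -/- and wild-type libraries overlap in RNA for all 4 genes. In footprints they do not for Dynlt1b, Gtf2h5 and Rsph3b, as they do not for 26.5% of all genes tested.

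In all, 0 of 9 members tested passed in footprints, where 5.35% of genes did. Libraries did not overlap for 4 of the 9 members (26.5% of all genes). An unadjusted p under 0.05 was found for 5, and for 2905 of 13227 genes in all, and DESeq2 called 1 (8.17%). Dynlt1c had too few footprints for the test. For translational efficiency 0 of 10 passed, as did 0 of 15202 genes, with 3 members at an unadjusted p under 0.05 (14.8% of all genes) and 1 called by DESeq2 (3.25%). The median footprint difference of the members was -0.35 on the log2 scale and that of all genes was 0.0043.

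Partner genes of the members were counted from lists of 22 cytoplasmic dynein and dynactin genes, 9 TFIIH genes and 14 endocytosis genes. In B6N n-Tr20 -/- and in B6J against B6N forebrain, 0 of each list passed edgeR's test, where 1.91% and 1.73% of all genes did. An unadjusted p under 0.05 was found for 4, 1 and 2 of the lists in B6N n-Tr20 -/- (12.7% of all genes). In B6J it was found for 1, 0 and 4 (12.8% of all genes). Dynll2, a dynein light chain of another family, rose by 0.17 ± 0.04 on the log2 scale in transgenic mice against B6N. It was the 1 call there, where 0.366% of all genes passed. Cltc, the clathrin heavy chain, had a log2 fold change of -0.29 ± 0.07 in B6J n-Tr20 -/- against transgenic mice, where 0.6% of all genes passed. It was the 1 call in the B6J n-Tr20 -/- comparisons. In n-Tr20 -/- footprints 3 of 22 dynein genes, 0 of 9 TFIIH genes and 1 of 14 endocytosis genes passed, where 5.35% of all genes did, with 6, 1 and 4 at an unadjusted p under 0.05. There Dync1i2 rose by 0.31 ± 0.08 and Dync1li1 by 0.29 ± 0.07, both subunits of the dynein motor, while Dynll2 fell by 0.51 ± 0.11 and Cltc rose by 0.38 ± 0.08. No gene of the TFIIH list passed in any comparison, with 0 to 2 at an unadjusted p under 0.05.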

How the data were processed

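The authors deposited estimated counts and TPM per transcript for forebrain, in the layout of kallisto, and whole-number counts per gene for hippocampus RNA and footprints, per the file headers. Tools in the submitters' processing notes are HISAT2 2.1.0, featureCounts, Bowtie2 2.2.3 and kallisto 0.42.4, with build mm10. Forebrain libraries mark the strand and hippocampus RNA libraries do not, per the labels' protocols. Here estimated counts were summed per gene and rounded, and deposited TPM were summed per gene.

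Tests used edgeR 4.0.16 (TMM, filterByExpr at a minimum count of 10, robust quasi-likelihood F test, two-sided, Benjamini-Hochberg over all genes tested) in R 4.3.3, tested on simulated data. The 16 first-batch forebrain libraries were fitted together. Comparisons of B6J n-Tr20 -/- used all 21, with batch set by transgenic mouse 4. Each hippocampus assay had its own fit, and translational efficiency was their interaction over 12 libraries. Alternatives were DESeq2 1.42.0, its size factors, no filter, a replicate block, compared groups alone, summed copies, a length offset, no batch term and leaving out each library. The lowest common coefficient of variation was 7.0% in first-batch forebrain and the highest 14.0% in hippocampus RNA.

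Members, copies and the partner lists were chosen with earlier results of these data known. Named in the text are all members, their copies, the 5 neighbours with the largest forebrain difference in B6N n-Tr20 -/-, the 5 genes most like Tmem181a and the 5 most like Dynlt1b (log2 of CPM plus 0.5), and partner genes that passed. Positions and promoter sequences are RefSeq's on GRCm38. In every group no pair of replicates agreed within counting noise (chi-square per degree of freedom at least 2.73).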

Additional observations from a re-analysis of the deposited data

Results flagged for a closer look

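Dynlt1b in B6J n-Tr20 -/- mouse 4 was at 10.5 CPM, against 5.80 to 6.47 CPM in the other 3 mice of its group, farther from them than Dixon's test allows at 95%. This was the 1 such library in 50 combinations of member and group tested, where chance alone gives about 1 in 20. Mouse 4 was the 1 male of its group by Xist (2.03 CPM, against 334 to 367 CPM in the others), and mouse 3, a female, shared its higher Tmem181a, Tmem181b-ps and Tmem181c-ps. The part of sex in the Dynlt1b value was not tested. Without mouse 4 the log2 fold change of Dynlt1b in B6J n-Tr20 -/- against B6N n-Tr20 -/- was -0.0050, and with it 0.22.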

How the results depend on the processing

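The directions of Tmem181a, Dynlt1b and Synj2 in the 3 forebrain comparisons with B6N held under every alternative, and Tmem181a and Dynlt1b stayed past the threshold in all of them. Synj2 missed it with a transcript length offset in B6N n-Tr20 -/- and passed it in transgenic mice with DESeq2 and with the compared groups alone. Without a batch term, 1 member (Snx9) was called in B6J n-Tr20 -/- against transgenic mice. In footprints 1 member (Gtf2h5) was called by DESeq2 and with no filter, and leave-one-out fits called 0 to 1: Gtf2h5 without n-Tr20 -/- library 3 and Tmem242 (-0.57, adjusted p = 0.0485) without wild-type library 1. For translational efficiency 1 (Gtf2h5) was called by DESeq2, and leave-one-out fits gave 0 to 1. In hippocampus RNA the sign of values near 0 turned for Tmem181a with no filter (0.00022) and on leaving out a library (-0.033 to 0.033), and for Dynlt1b on leaving out a library (-0.196 to 0.083) and with copies summed (0.062). The cause was not tested.

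Replicate numbers did not pair groups of the same assay: correlations of deviations ran from -0.082 to 0.104 in first-batch forebrain and -0.28 to 0.104 in hippocampus. Whether the numbers pair hippocampus RNA with footprints was not examined by correlation. With a replicate block 3 members were called in B6N n-Tr20 -/- against B6N, 3 in B6J against B6N, 2 in transgenic mice against B6N and 0 elsewhere. Leaving out transgenic mouse 4 was not run in the fit with batch, since no batch term can then be had. Counts of Dynlt1b footprints, down to 2 in a library, limit what that comparison can show, and reads that copies may share limit values of single copies.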
